A study of Mus musculus with 20 samples.

Results

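The genes described here are 8 enzymes of cholesterol synthesis, Hmgcs1, Mvd, Idi1, Fdps, Fdft1, Sqle, Lss and Cyp51, out of 23413 genes counted in the cortex of APOE4 mice. They were chosen by name as enzymes on the route from HMG-CoA to cholesterol, with earlier results of these data known. All 20 mice carried the humanized APOE4 knock-in allele Apoe tm1.1(APOE*4)Adiuj on a B6(SJL) background, in which human APOE4 stands in place of mouse Apoe, and all were 22 months old. They were fed a control diet (CD) or a ketogenic diet (KD, high in fat and very low in carbohydrate) in isocaloric amounts for 12 months, starting at 10 months of age. There were 5 females and 5 males on the CD and 4 females and 6 males on the KD, with 1 cortex RNA library per mouse and no mice of another APOE genotype.

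Brain cholesterol is made almost wholly within the brain, since lipoproteins of the blood do not cross the blood-brain barrier. The route first joins acetyl-CoA units into HMG-CoA, passes through mevalonate and isoprene units to farnesyl diphosphate and squalene, and then closes the sterol rings and trims them to cholesterol. When sterol in the endoplasmic reticulum is low, SREBP-2 (encoded by Srebf2) is cut and enters the nucleus, where it activates the genes of nearly every step. Astrocytes supply cholesterol to neurons on APOE particles in the adult, oligodendrocytes use it for myelin, and neurons dispose of it by hydroxylation through Cyp46a1.

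The enzymes are named here in the order of their steps. Hmgcs1 (chr13:119690379-119708260, plus strand, GRCm38) makes HMG-CoA, the entry to the mevalonate route. Mvd (chr8:122433601-122443422, minus strand) decarboxylates mevalonate diphosphate to isopentenyl diphosphate, and Idi1 (chr13:8885501-8892451, plus strand) isomerizes that product to its allylic partner. Fdps (chr3:89093588-89101959, minus strand) condenses these units to farnesyl diphosphate, the branch point to prenylated proteins, dolichol and ubiquinone. Fdft1 (chr14:63145150-63179578, minus strand) makes squalene, the first step committed to sterols. Sqle (chr15:59315077-59331192, plus strand) adds the epoxide, Lss (chr10:76531588-76557138, plus strand) closes the rings to lanosterol, and Cyp51 (chr5:4081145-4104746, minus strand) takes a methyl group off lanosterol. Exons of Fdft1 overlap those of Ctsb, exons of Lss those of 4930483K19Rik and exons of Cyp51 those of Akap9, each on the other strand. The counted strand is not given in the sources used here, so reads of those overlaps cannot be assigned with certainty.

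The promoters are shown because these genes share a known regulator. RefSeq (GRCm38.p6) gave a promoter for 5 of the 8, namely Hmgcs1, Mvd, Idi1, Lss and Cyp51, and each was searched on both strands from 250 bases before to 50 bases after the start site. The letters searched were CCAAT, the box bound by NF-Y, which acts with SREBP, and TCACNCCAC, a form of the sterol regulatory element. Capitals mark the matches of these motifs on either strand, so that ATTGG is CCAAT read on the other strand. Fdps, Fdft1 and Sqle are named only. For Idi1 and Cyp51 only the 30 bases around the match nearest the RefSeq start site are printed. By the gene coordinates given above, both of these stretches lie inside the gene. Of the 150 bases before the start site, GENCODE M21 exons cover 150 in Idi1, 49 in Cyp51 and 17 in Lss. Positions counted from the start site are thus less firm for these genes.
Hmgcs1, chr13:119690201-119690350, plus strand: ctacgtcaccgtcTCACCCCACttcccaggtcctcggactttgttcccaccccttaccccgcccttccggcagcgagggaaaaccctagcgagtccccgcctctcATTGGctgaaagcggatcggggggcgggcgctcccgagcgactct
Mvd, chr8:122443423-122443572, minus strand: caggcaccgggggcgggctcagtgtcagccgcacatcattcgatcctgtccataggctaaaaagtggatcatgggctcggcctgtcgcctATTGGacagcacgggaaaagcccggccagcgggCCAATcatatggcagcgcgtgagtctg
Lss, chr10:76531455-76531587, plus strand: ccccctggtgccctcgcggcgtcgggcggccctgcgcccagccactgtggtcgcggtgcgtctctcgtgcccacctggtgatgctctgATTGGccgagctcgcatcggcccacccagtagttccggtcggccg
Idi1, chr13:8885580-8885609, plus strand: gtccaaggtgccATTGGctggcgaccgaca
Cyp51, chr5:4104709-4104738, minus strand: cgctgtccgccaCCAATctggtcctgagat

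All 5 promoters held CCAAT, which 37.4% of the 32851 promoters of this length held. The match nearest the start site began at position -27 in Mvd, -14 in Idi1, -62 in Lss and -29 in Cyp51, and Hmgcs1 had one at -45. TCACNCCAC was found in Hmgcs1 alone, at -137, and in 1.24% of all promoters. A GC box, GGGCGG, was also present in all 5 and in 35.7% of all promoters. These matches are a description of the letters, and no binding was measured.

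Totals were between 12207161 and 29109990 counts per library, and the libraries fall by their library numbers into series 1 and series 2, each with mice of all 4 groups. Xist was at 319 CPM (counts scaled to the library's total) or more in every female and at most 7.59 CPM in every male. The labelled tissue is cortex. Summed over 10 markers of cortical excitatory neurons the libraries had 479 to 1222 CPM, with no marker at 0 in any group. Striatal markers were uneven: their sum over 18 genes was 3270 to 4163 CPM in KD females E61, E68 and E207 and 576 CPM in KD female E227, and 1525 CPM in CD female E249 against 370 to 555 CPM in the other CD females. KD male E59 had 5185 CPM of striatal markers and 2401 CPM of choroid plexus markers, against at most 993 and 60.7 CPM in the other males. Results on females are therefore also given without E227 and E249. That leaves striatal markers high in every KD female and low in every CD female. In bulk tissue fewer cells of a type and less RNA per cell cannot be told apart.

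The levels of the enzymes differed widely. All 8 passed the filter on low counts (15660 genes did). Levels below are CPM scaled by upper-quartile normalization, and levels between genes are compared per kilobase of transcript. Hmgcs1 was the highest by far, at 143 ± 20.1 CPM per kb (SD, n = 20), and was above Fdps in 20 of 20 libraries. Fdps followed at 41.5 ± 8.62 CPM per kb, then Sqle at 33.0 ± 4.48, Cyp51 at 29.7 ± 3.58 and Fdft1 at 27.4 ± 4.14. Lss, Idi1 and Mvd, at 4.55 ± 0.701, 4.42 ± 0.644 and 3.65 ± 1.80 CPM per kb, formed a low tier, and Fdft1 was above Lss in 20 of 20 libraries. Within the tiers the order was loose, with Cyp51 above Fdft1 in 12 of 20 libraries and Lss above Idi1 in 13 of 20.

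Within groups the coefficient of variation (CV, the SD over the mean) was between 11.9% for Sqle and 20.8% for Fdps, apart from Mvd at 49.3%. Counting error was 1.04% for Hmgcs1 and 10.2% for Mvd, whose libraries had 23 to 415 counts. Mvd ran from 1.93 CPM in CD female E249 to 14.3 CPM in KD male E64.

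**Figure D1:**
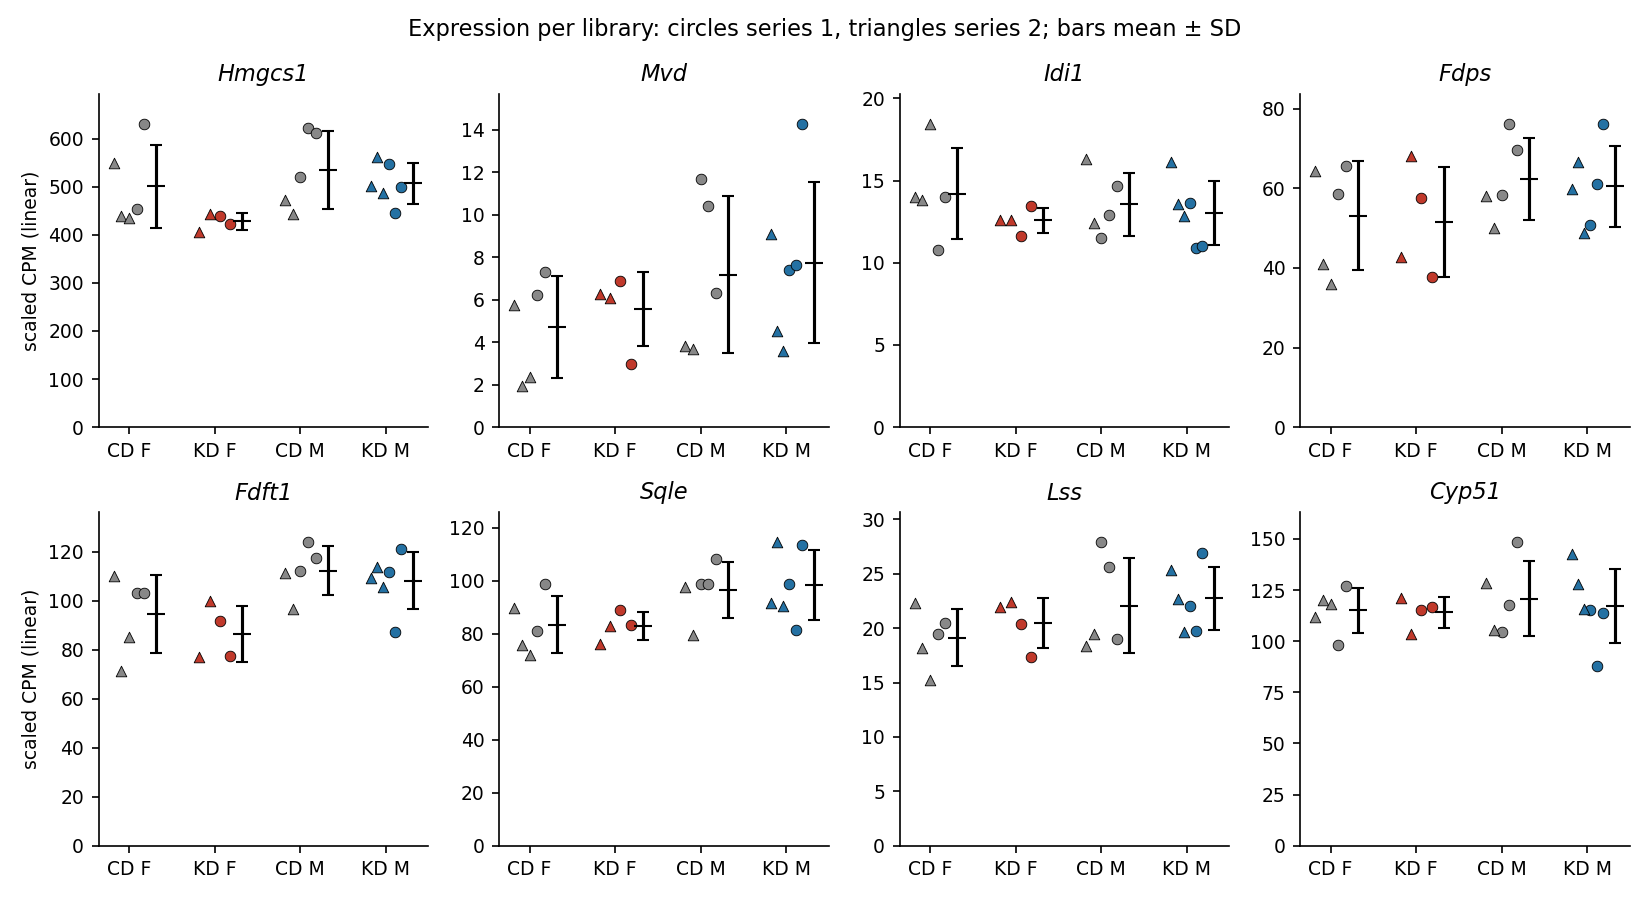
Scaled CPM (linear axis from 0) of each enzyme in the 20 libraries, by diet and sex (F, M). Each point is a mouse, circles are series 1, triangles are series 2, and the bars are the group mean ± SD; the KD and CD points of each sex overlap for all 8 enzymes, and the Fdft1 and Sqle points of males lie mostly above those of females.

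The first comparison asked whether the KD altered these enzymes in the cortex of females. No enzyme passed the test. Hmgcs1 had the smallest p, with 549, 438, 435, 454 and 631 CPM in CD females E228, E249, E265, E62 and E67, and 406, 444, 439 and 422 CPM in KD females E207, E227, E61 and E68. The KD values lay close together at the lower end of the CD values, and 2 of them lay above the 2 lowest CD values. The means were 428 ± 17.5 CPM (SD, n = 4) and 501 ± 86.2 CPM (SD, n = 5), and the fitted log2 fold change was -0.24 (SE 0.116), which is 0.848-fold with a 95% log2 interval of -0.48 to 0.01 (edgeR quasi-likelihood test, adjusted p = 0.454). By a two-sided exact permutation test p was 0.143, and the smallest p that 4 against 5 mice allow is 0.00794.

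The enzymes of the middle and last steps had differences nearer 0 in females. Fdft1 was at 110.0, 71.4, 85.3, 103 and 103 CPM in CD females E228, E249, E265, E62 and E67 and at 76.9, 100.1, 91.6 and 77.2 CPM in KD females E207, E227, E61 and E68, so the groups overlapped over most of their range. Its fitted log2 fold change was -0.13 (SE 0.124, edgeR adjusted p = 0.783). Sqle, often called the second control point of the route, was at 82.8 ± 5.35 CPM in KD and 83.5 ± 10.9 CPM in CD females (SD, n = 4 and n = 5), a 0.985-fold ratio with a 95% interval of 0.839 to 1.16. Cyp51 was at 114 ± 7.51 and 115 ± 10.9 CPM, with a fold of 0.998 and an interval of 0.833 to 1.19. These intervals leave out a 1.5-fold difference in either direction for Hmgcs1, Idi1, Fdft1, Sqle, Lss, Cyp51 and Fdps, and do not for Mvd, whose interval ran from 0.692 to 2.12-fold.

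Of the 8 enzymes 0 were called in females at FDR 0.1 and 1.5-fold, where 0.0447% of all genes tested were called, and 0 had an unadjusted p under 0.05, where 11.4% of all genes did. The other tools gave the same count of calls, with 0 by the edgeR likelihood ratio test and 0 by DESeq2. KD and CD libraries overlapped for all 8, and 1.81% of all genes had no overlap. The median log2 fold change of the 8 was -0.03, beside 0.01 for all genes tested, with 6 lower and 2 higher in KD. The 2 higher were Mvd (0.28) and Lss (0.09).

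Leaving out KD female E227 and CD female E249 moved several of the enzymes. The KD females kept had 3270 to 4163 CPM of striatal markers and the CD females kept 370 to 555 CPM. In that fit the diet and the striatal content of the sample cannot be told apart. Hmgcs1 was then at a log2 difference of -0.31 (edgeR adjusted p = 0.138), Fdft1 at -0.31 (adjusted p = 0.0936) and Fdps at -0.32 (adjusted p = 0.317). Mvd was at -0.06 in place of 0.28, and Sqle (-0.07) and Cyp51 (0.06) stayed near 0. In that fit 18.4% of all genes had an adjusted p of 0.1 or less, so that 1 enzyme of 8 is no more than the share over all genes, and none reached 1.5-fold. When the score of striatal markers entered the fit of all 20 libraries, 6 of the 8 were higher in KD and 2 lower, with a median of 0.09, and Fdft1 was at 0.10, Fdps at 0.08 and Hmgcs1 at -0.14. Striatal markers were higher in KD females for 18 of 18 genes and cortical excitatory markers lower for 9 of 10.

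In males the same comparison also left no enzyme past the test. Hmgcs1 was at 473, 443, 519.8, 622 and 612 CPM in CD males E251, E264, E51, E58 and E66, and between 446 and 562 CPM with a median of 501 in the 6 KD males. The KD values lay inside the CD range. The fitted fold was 0.963 with a 95% interval of 0.827 to 1.12 (exact permutation test, p = 0.539). Sqle was at 97.5, 79.5, 98.6, 98.8 and 108 CPM in the CD males and between 81.5 and 115 CPM in the KD males (median 95.2), with a fold of 1.03 and an interval of 0.890 to 1.19. Fdft1 was at 112 ± 10.1 CPM in CD and 108 ± 11.5 CPM in KD males (SD, n = 5 and n = 6). Log2 fold changes of the 8 were between -0.08 for Idi1 and 0.23 for Mvd.

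Again 0 of 8 were called, beside 0% of all genes, and 0 had an unadjusted p under 0.05, beside 3.56%. The edgeR likelihood ratio test and DESeq2 also called 0. All 8 overlapped between KD and CD males, where 0.243% of all genes did not. In males the median of the 8 was -0.03 on the log2 scale. Oligodendrocyte markers were lower in KD males for 13 of 13 genes, with sums of 1165 to 3708 CPM against 2315 to 4444 CPM in CD males, and with their score as a covariate Fdft1 was at -0.11 and Sqle at -0.07. Choroid plexus markers were higher for 7 of 7 tested, with sums of 20.2 to 2401 CPM against 15.2 to 60.7 CPM. Without E59, 5 of the 8 were higher in KD males, and the median was 0.02.

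The diet differences did not repeat between the library series. In males the median log2 fold change of the 8 was -0.13 within series 1, with 7 of 8 lower in KD, and 0.14 within series 2, with 7 of 8 higher in KD. Hmgcs1 was at -0.24 in series 1 and 0.17 in series 2, and Cyp51 at -0.23 and 0.13. In females the medians were -0.19 and 0.00. Hmgcs1 was lower in KD females in both series (-0.34 and -0.15), and Mvd was lower in series 1 (-0.46) and higher in series 2 (0.85). None of these was called within a series, where a group has 2 or 3 mice.

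The interaction asked whether the diet difference depended on sex. It was between -0.18 for Hmgcs1 and 0.05 for Cyp51 on the log2 scale (diet difference in females minus that in males). The smallest p was 0.257. Of the 8, 0 were called, beside 0% of all genes, and 0 had an unadjusted p under 0.05, beside 2.14%. For Hmgcs1 the 95% interval was -0.51 to 0.14, so a difference between the sexes in either direction could not be told from the spread between mice.

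**Figure D2:**
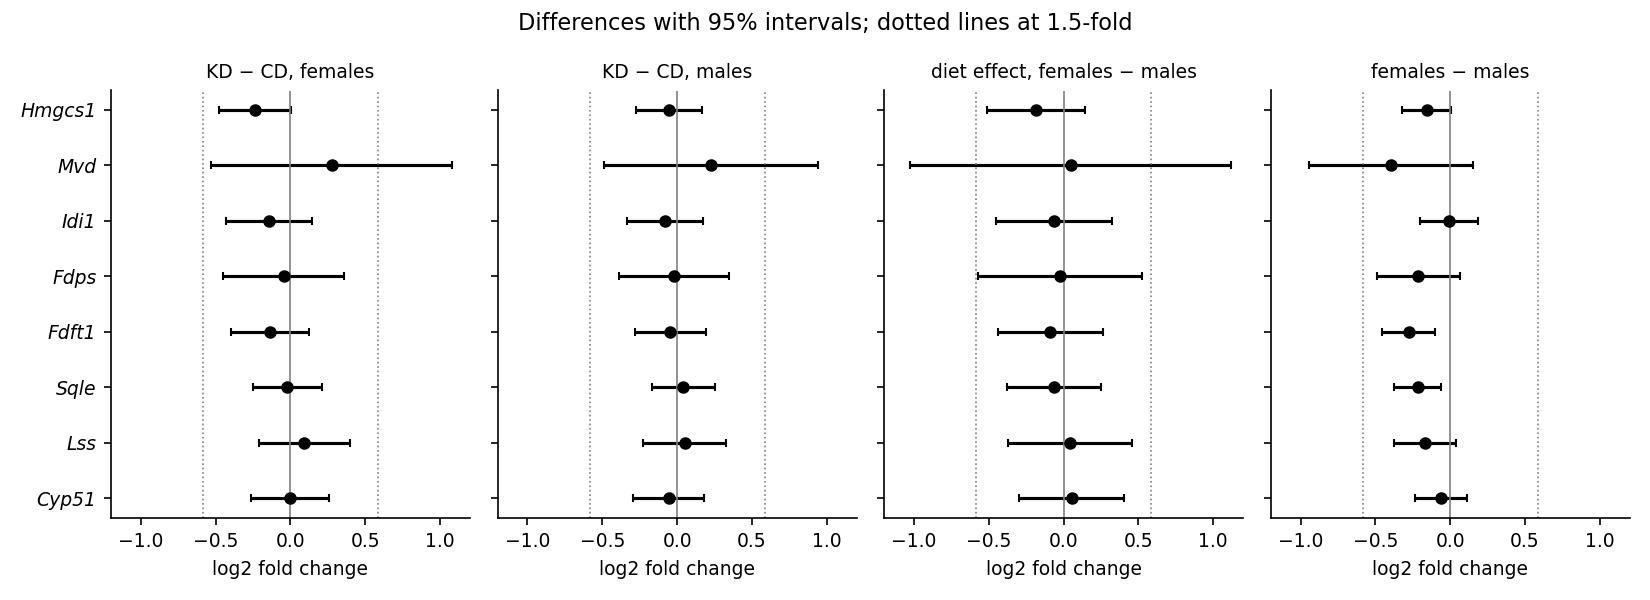
Log2 fold changes of the 8 enzymes with 95% intervals from the edgeR fit, for KD minus CD in females, KD minus CD in males, the difference between these, and females minus males; the dotted lines are 1.5-fold. All diet intervals include 0, and in the panel of females minus males all 8 points lie below 0, with the intervals of Fdft1 and Sqle clear of it.

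The comparison of females with males, averaged over both diets, was the one in which the enzymes lay to 1 side. All 8 had a lower fitted level in females, from -0.01 for Idi1 to -0.40 for Mvd on the log2 scale. This was also so with TMM or DESeq2 size factors. Without the series term, with the striatal score and in several fits with mice left out, 7 of 8 were lower. The mean of Idi1 before fitting was 13.5 CPM in females and 13.3 CPM in males. Several of the enzymes varied together between mice, as given further on, so the 8 are not independent. The median was -0.19, while that of all genes tested was 0.00 and 49.2% of all genes were lower in females. Fdft1, the squalene synthase, was between 71.4 and 110.0 CPM in the 9 females (median 91.6) and between 87.2 and 124 CPM in the 11 males (median 112). Every female was below the male median, and 10 of 11 males were above the female median. The fold was 0.825 with a 95% interval of 0.730 to 0.932 (edgeR quasi-likelihood test, adjusted p = 0.196). Its p over all splits of the mice, an exact permutation test, was 0.00338. That test took no account of diet or series, was not adjusted and was added after seeing the data.

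Sqle, the next enzyme, was between 71.9 and 98.7 CPM in females (median 83.0) and between 79.5 and 115 CPM in males (median 98.6). Of the females 8 of 9 were below the male median. Its fold was 0.860 with an interval of 0.771 to 0.958 (edgeR adjusted p = 0.239), with an exact permutation p of 0.00694. For the enzymes other than Fdft1 and Sqle the exact permutation p was between 0.0699 (Lss) and 0.826 (Idi1). Hmgcs1 was between 406 and 631 CPM in females (median 439) and between 443 and 622 CPM in males (median 502), with 7 of 9 females below the male median and a fold of 0.898 (interval 0.801 to 1.01). Cyp51 and Idi1 were at 0.959-fold and 0.994-fold.

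Adjusted over all genes no enzyme passed, so 0 of 8 were called, beside 0.134% of all genes. At an unadjusted p under 0.05 there were 2 of 8, Fdft1 and Sqle, beside 13.6% of all genes. The edgeR likelihood ratio test and DESeq2 called 0 at 1.5-fold. At an adjusted p of 0.1 or less with no minimum fold, Fdft1 passed by the likelihood ratio test, where 2.73% of all genes did, and by DESeq2, where 2.26% did. Without KD female E227, Fdft1 (adjusted p = 0.0301) and Sqle (adjusted p = 0.0916) passed, while 11.7% of all genes did. Without E227 and E249 Fdft1 passed, as did 7.80% of all genes, and without KD male E59 Fdft1 passed, as did 1.77%. Within series 1 6 of the 8 were lower in females, and Mvd was at -0.73 there and at -0.02 in series 2.

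Markers of other cells also differed by sex. Striatal markers were higher in females for 18 of 18 genes, microglial markers for 12 of 12 and endothelial markers for 10 of 10, and cortical excitatory markers were lower for 9 of 10. The striatal and excitatory differences lay mostly in KD females. Median striatal sums were 504 CPM in CD females, 497 in CD males, 3507 in KD females and 525 in KD males. Median excitatory sums were 1114, 1076, 588 and 1005 CPM in the same order. The sums of microglial markers were 373 to 512 CPM in CD females and 469 to 679.7 CPM in KD females, beside 371 to 498 CPM in CD males and 374 to 524 CPM in KD males. The sums of endothelial markers were 345 to 461 CPM in CD and 354 to 488 CPM in KD females, and at most 392.5 CPM in males. With the striatal score in the edgeR fit, Fdft1 was at -0.18 and Sqle at -0.17 (adjusted p = 0.996 for both), and Idi1 was at 0.02. Before adjustment the edgeR p in that fit was 0.0254 for Fdft1 and 0.0505 for Sqle. With the astrocyte score Fdft1 was at -0.24 and Sqle at -0.21 (edgeR adjusted p = 0.606 and 0.637). With the oligodendrocyte score they were at -0.25 and -0.17 (edgeR adjusted p = 0.231 and 0.303). The part of the microglial and endothelial markers in these differences was not tested.

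The other genes of the pathway were counted from lists. Of 13 further enzymes of sterol synthesis 0 had an unadjusted p under 0.05 for the diet in either sex. Of all genes 11.4% had one in females and 3.56% in males. On the log2 scale their median was -0.01 for KD females and 0.01 for KD males. For females against males 11 of the 13 were lower in females, beside 49.2% of all genes, with a median of -0.17. Of the 13, 3 had an unadjusted p under 0.05, all lower, where 13.6% of all genes had one in either direction. Among these were Hsd17b7 (0.817-fold, edgeR adjusted p = 0.190), a sterol ketoreductase, and Sc4mol, a methyl sterol oxidase now named Msmo1 (0.892-fold, adjusted p = 0.354). No gene of either set passed after adjustment over all genes.

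Among the 10 genes that govern the route, the KD raised 3 in females with an edgeR p below 0.05 before adjustment, and lowered 0. Over all genes 11.4% had such a p in either direction. Mbtps1 was one of these, at 1.19-fold (edgeR adjusted p = 0.408). In males 1 gene of this list was higher and 1 lower by that measure, beside 3.56% of all genes. In either sex 0 of the 10 were called. Srebf2 itself had a fold of 0.998 in females and 1.01 in males on the KD. Insig1, which holds SREBP in the endoplasmic reticulum and is itself a target of it, was at 0.847-fold in KD males (edgeR adjusted p = 0.9998, unadjusted under 0.05) and 0.973-fold in KD females.

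Of the 11 tested genes of sterol export and turnover, 8 were higher in KD females, beside 52.7% of all genes. Only 1 of them, Abcg1, had an unadjusted p under 0.05, where 11.4% of all genes did. Abca1, the exporter that loads cholesterol onto APOE particles, was at 1.39-fold in females against males (edgeR adjusted p = 0.190). Its median was 75.2 CPM in CD females and 78.2 CPM in CD males, and 134 and 77.4 CPM in KD females and males. In KD against CD females Abca1 was at 1.36-fold (edgeR adjusted p = 0.443). Of the 8 genes of the isoprenoid branch 0 had an unadjusted p under 0.05 in any of the 4 comparisons. Between 2.14% and 13.6% of all genes had one. Of 11 genes of fatty acid synthesis 9 were higher in females than in males, beside 50.8% of all genes. Elovl5 was at 1.33-fold and Scd2 at 1.15-fold. For Elovl5 the median was 97.1 CPM in CD females, 92.1 in CD males, 144 in KD females and 89.2 in KD males. The sterol enzymes and the fatty acid enzymes thus had median log2 fold changes on opposite sides of 0 (-0.19 and 0.10).

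The second question put to these genes was whether mice with more of one enzyme had more of the others. The group and series means were removed from the log2 CPM of each gene, and the remaining deviations were compared over 20 mice in all 28 pairs. Of the pairs 23 had a positive Pearson r, with a median of 0.47. An adjusted permutation p under 0.05 was reached by 14 pairs with r and by 12 with Spearman's rho. The permutations treated the 20 deviations as independent although means had been removed from them. The p of these correlations are therefore too small, and the counts of pairs can be too high. Over all pairs of the 14099 genes at 1 CPM or more the median r was 0.00 and 15.2% were above 0.5, beside 50% of the member pairs.

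**Figure D3:**
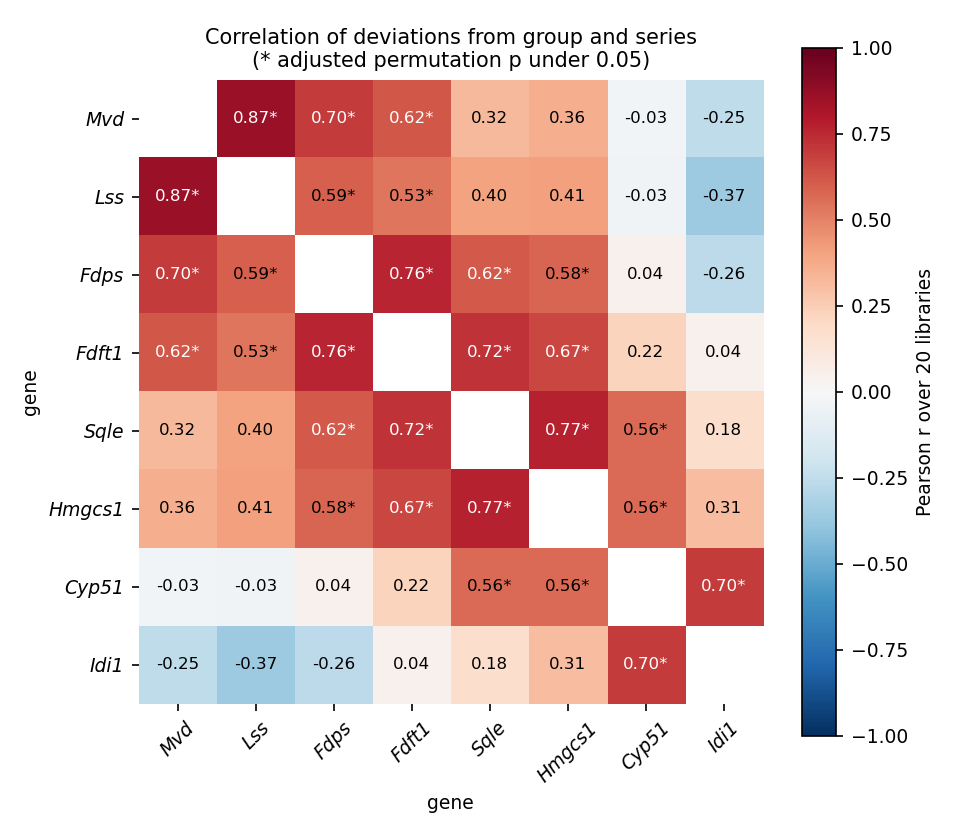
Pearson r between the deviations of each pair of enzymes over 20 libraries, after group and series were removed, with blue for negative and red for positive r and an asterisk for an adjusted permutation p under 0.05. Red fills the block from Mvd to Hmgcs1, and Idi1 is starred with Cyp51 alone, with r from -0.37 to 0.04 between Idi1 and Mvd, Lss, Fdps and Fdft1.

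The tightest pair was Mvd and Lss, with r = 0.87 and rho = 0.85 (permutation test, adjusted p = 0.00028 and 0.00014, from the smallest p the resamples allow), and r = 0.84 without the 2 libraries farthest from the median. Within series 1 and series 2 r was 0.89 and 0.82. Hmgcs1 and Sqle, the entry step and the later control point, had r = 0.77 and rho = 0.78 (permutation test, adjusted p = 0.0014 and 0.00119), and r = 0.69 without the 2 farthest libraries. Fdps and Fdft1, consecutive enzymes at the branch point, had r = 0.76 and rho = 0.88 (permutation test, adjusted p = 0.0014 and 0.00014), and Fdft1 and Sqle, also consecutive, had r = 0.72 and rho = 0.77 (adjusted p = 0.00202 and 0.00084).

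Idi1 and Cyp51 went together (r = 0.70, rho = 0.74, permutation test, adjusted p = 0.00189 and 0.00149, and r = 0.81 and 0.66 within series 1 and 2). Idi1 passed with no other enzyme, while Cyp51 also passed by r with Hmgcs1 (0.56) and Sqle (0.56, adjusted permutation p = 0.0215 for both), though not by rho. Idi1 had r = -0.37 with Lss, -0.26 with Fdps and -0.25 with Mvd, none with an adjusted p under 0.05. Several pairs differed between the series. Hmgcs1 and Cyp51 had r = 0.56 over all libraries, 0.82 in series 1 and -0.13 in series 2, and Hmgcs1 and Fdps had 0.58, 0.26 and 0.92. Within either series alone 6 pairs passed, with 10 libraries each. With so few libraries the removed means weigh more, so these counts are less certain.

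The GC content of the transcript differed between the enzymes. The principal transcripts of Mvd and Fdps hold 59.3% and 54.5% GC, and those of Idi1 and Hmgcs1 41.9% and 43.1%. In each library the slope of all genes' deviations on GC content was taken, and it ran from -0.41 to 0.36 log2 units per 10 points of GC. The deviations of Mvd followed that slope with r = 0.90 and rho = 0.87 over 20 libraries (permutation test, adjusted p = 8e-05 for both, the smallest the resamples allow), and r = 0.85 without the 2 farthest libraries. Lss followed it with r = 0.77 (rho = 0.78), Fdps with 0.63 (rho = 0.62) and Fdft1 with 0.55 (rho = 0.57), and these 4 of 8 relations passed after adjustment. The slope is drawn from all genes, so genes of high GC content follow it in part by construction. The share of all genes that would pass was not counted, so these p do not set the enzymes apart. Without the 2 farthest libraries r was 0.79 for Lss, 0.49 for Fdps and 0.36 for Fdft1. Hmgcs1 (0.11) and Sqle (0.14) did not pass, and Idi1 (-0.45) and Cyp51 (-0.35) leaned the other way.

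**Figure D4:**
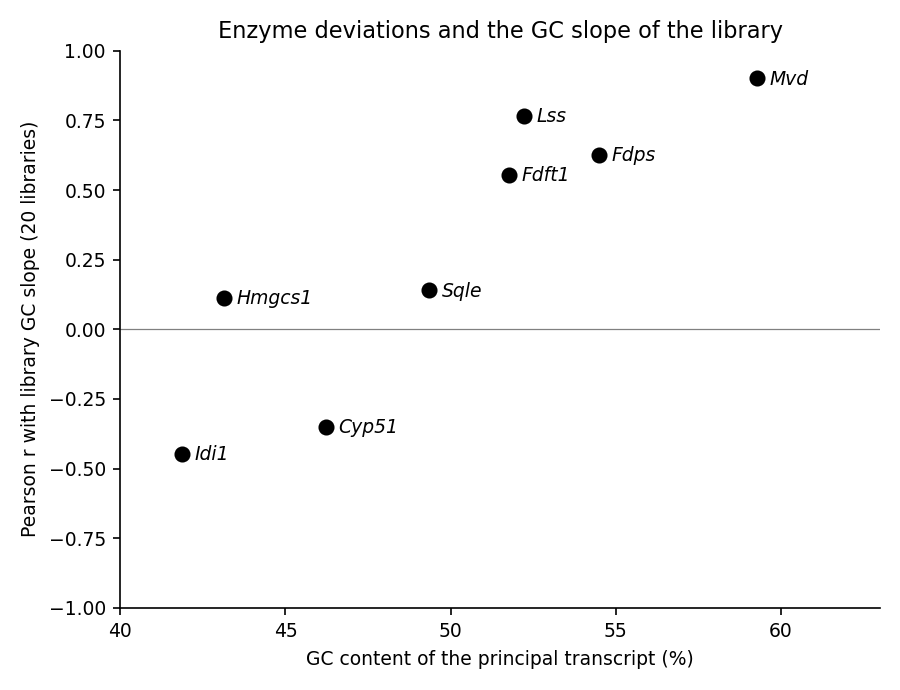
GC content of the principal transcript (percent, x axis) and the Pearson r between the enzyme's deviations and the GC slope of the library over 20 libraries (y axis), 1 point per enzyme. The r runs from -0.45 for Idi1, at 41.9% GC, to 0.90 for Mvd, at 59.3% GC.

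With the slope removed from every gene, 14 pairs passed and 27 of 28 had a positive r, with a median of 0.48. Mvd and Lss then had r = 0.63 and Idi1 and Cyp51 0.65. Hmgcs1 and Sqle had 0.76, Fdft1 and Sqle 0.78, and Idi1 and Mvd 0.38 in place of -0.25. Single pairs moved in both directions, with Mvd and Cyp51 at 0.70 in place of -0.03 and Fdps and Lss at 0.23 in place of 0.59. Removing the oligodendrocyte, astrocyte or striatal marker score in place of the slope gave 14 pairs past the threshold in each case.

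Other genes were ranked by likeness to the 8 enzymes. For each of 14091 genes outside the 8, deviations were compared with the mean of the 8 enzymes' deviations, each scaled to an SD of 1, and genes were ranked by r as a description with no test. The GC slope was left in these deviations, so its part in the ranking is not known. Among the most alike were D230025D16Rik (0.86), Nsf (0.84), Hspa8 (0.84), Ccdc171, C2cd4b, Rdh11, Palm3, Coq4 and Pex10 (0.79). Nsf drives the release of SNARE complexes in vesicle fusion, Hspa8 is the constitutive HSC70 chaperone, and Coq4 takes part in ubiquinone synthesis. Among the most opposite were Neu3 (-0.87), Nfatc3 (-0.84), Phf21a (-0.83) and Lpl (-0.81), of which Neu3 is a ganglioside sialidase and Lpl is lipoprotein lipase. Among the 13 further sterol enzymes 12 had a positive r with the mean of the 8, with a median of 0.53, and 53.8% were above 0.5, beside 9.82% of all genes. In the list of SREBP control Srebf2 had r = 0.42 and Insig1 0.40. The medians were -0.04 for export and turnover, -0.21 for the isoprenoid branch and 0.06 for fatty acid synthesis.

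**Figure D5:**
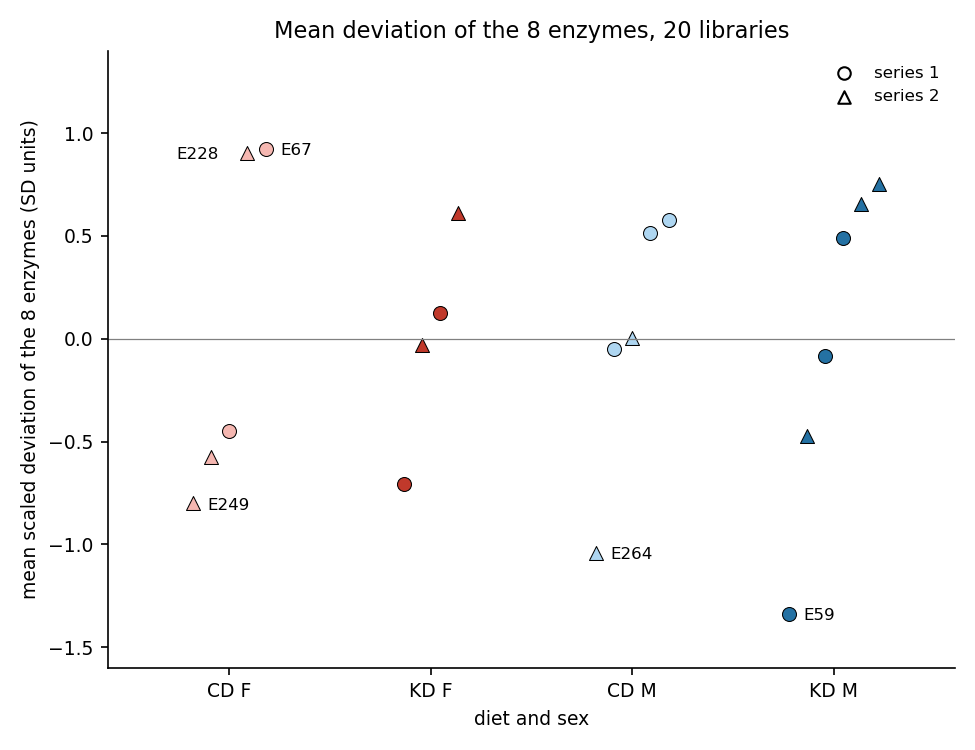
Mean scaled deviation of the 8 enzymes from group and series (SD units, y axis) in the 20 libraries by diet and sex (x axis), 1 point per mouse, with circles for series 1 and triangles for series 2. The points run from KD male E59 at -1.34 to CD female E67 at 0.92.

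Group and series means were removed, so each group is centred on 0 by construction. The mean deviation was lowest in KD male E59 (-1.34), CD male E264 (-1.04) and CD female E249 (-0.80), and highest in CD females E67 (0.92) and E228 (0.90). In E59 all 8 enzymes were below the group, from -0.36 for Cyp51 to -0.06 for Fdps on the log2 scale. E59 is the library with the high choroid plexus and striatal markers. Without it 11 of the 28 pairs passed in place of 14, with a median r of 0.35. Without CD male E264 11 passed as well. Choroid plexus markers had a negative r with the mean of the 8 for 6 of 6 genes (median -0.51) and striatal markers for 18 of 18 (median -0.42). For the scores of these lists r was -0.58 and rho -0.38 for choroid plexus, and r was -0.43 and rho -0.17 for striatum. Other lists also went against the enzymes. The score of inhibitory neurons had r = -0.54 and rho = -0.42, although 4 of its 8 genes had a positive r. Endothelium had r = -0.34 and rho = -0.28, and astrocytes r = -0.33 and rho = -0.34. Scores of cortical excitatory neurons (r = 0.32, rho = 0.29) and microglia (r = 0.16, rho = 0.20) went the other way. These relations were not tested.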

How the data were processed

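RNA was sequenced from the cortex of 20 APOE4 mice, with 1 library per mouse. Per the labels, TruSeq Stranded Total RNA libraries were made, and the authors deposited raw counts of reads per gene after alignment with STAR (mm10), not normalized and without rows for reads on no gene. Versions, gene annotation and counted strand are not given in the sources used here. The labels' SD is the CD of the paper, and the library series was read from the library numbers.

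From the counts, 15660 genes passed filterByExpr and were fitted in R 4.3.3 with edgeR 4.0.16 (upper-quartile normalization, 4 groups and series, robust quasi-likelihood test, Benjamini-Hochberg adjustment, calls at FDR 0.1 and 1.5-fold). The authors also used RUVg, whose factors are not stated, so it was run only as an alternative. CPM are scaled by the upper-quartile library sizes, and log2 CPM have a prior count of 2. Xist and the marker sums are CPM of the library total. Lengths, GC content and coordinates came from GENCODE M21 (GRCm38). Permutation tests used all splits for a gene, and 100000 resamples for a correlation. Alternatives were other normalizations, filters, covariates and tests (DESeq2 1.42.0), RUVg with 1 or 2 factors, each series, and leaving out each mouse. The edgeR and pair scripts were tested on simulated data.

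The enzymes, lists and tests were chosen with earlier results of these data known. Named genes are the 8 enzymes, genes of the lists, Xist, and the 10 most alike and 5 most opposite genes, of which some are not reported here.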

Additional observations from a re-analysis of the deposited data

How the results depend on the processing

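In each of the 4 comparisons 0 of the 8 enzymes were called at FDR 0.1 and 1.5-fold, also with other normalizations, filters, covariates or tools, with one series, and with 1 or 2 mice left out. With no minimum fold the count was 0 with all mice and the quasi-likelihood test, while Fdft1 passed by the likelihood ratio test, by DESeq2, without E227, without E227 and E249 and without E59, and Sqle without E227, in the comparisons given above. With 1 mouse left out the median log2 fold change of the 8 was between -0.08 and 0.03 for the diet in females, -0.09 and 0.02 in males, -0.12 and 0.02 for the interaction, and -0.23 and -0.13 for females against males. Over the other alternatives it was between -0.19 and 0.09, -0.13 and 0.14, -0.18 and 0.08, and -0.22 and -0.11. The sign of single values turned in 30 of 288 values for the diet in females, 24 of 288 in males, 42 of 280 for the interaction and 13 of 280 for females against males, where Idi1 had 12 of the 13. Hmgcs1 stayed lower in KD females in all 36 fits, between -0.34 and -0.11, and Fdft1 and Sqle stayed lower in females than in males in all 35. The number of pairs of enzymes past the threshold was 14 over all libraries, 6 in series 1 alone, 6 in series 2 alone, and between 11 and 16 with 1 mouse left out. It was 14 with TMM, and 13 without E227 and E249, which, like the removal of the GC slope and the exact test of the sexes, was added after seeing the data. Each series alone has 10 libraries, and the permutations took no account of the means removed, so these counts of pairs can be too high. No paired analysis was possible because the animals' numbers are not shared between groups. Mvd had 23 counts in its lowest library, which limits its precision, and depth is not the limit for Hmgcs1 at 5110 counts or more.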
